A study of Mus musculus with 2 samples.

Results

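The genes described here encode the enzymes that add methyl groups to lysines of histones (methyltransferases, or writers) and those that remove them (demethylases, or erasers). They were chosen by name: protein-coding genes whose mouse symbol begins with Kmt2 to Kmt5, Kdm2 to Kdm8, Setd1 to Setd9, Setdb, Suv39h, Ehmt, Nsd1 to Nsd3 or Whsc1, or is Dot1l. The gene on the Y chromosome that the rule excludes was left out, as were an antisense gene and a pseudogene that the name pattern also matched. This gave 41 genes, 15 demethylases and 26 methyltransferases, of 43346 genes in the tables and 21461 nuclear protein-coding genes. Expression was not used to choose them.

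The cells were G1E, an immortalised mouse line labelled as an erythroid progenitor without Gata1 (Gata1-), which encodes the factor that drives red cell maturation. The labels give strain C57BL/6J, male sex, and an age of 0 days at the postnatal stage. Total RNA above 200 nucleotides from 2 biological replicates of this line was sequenced, each library starting from 1 ng with spike-in transcripts added. Both replicates are the same line, without treatment in the labels and without a wild-type or Gata1-restored group, so the results are levels and a comparison of one library with the other. No number here describes an effect of losing Gata1.

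Replicate 2 held 40597614 estimated counts, with 7669565 (18.9%) on nuclear protein-coding genes. Replicate 1 held 31649878, with 8513094 (26.9%) on them. Gata1 itself had 12.5 TPM (649 counts) in replicate 2 and 21.96 TPM (798 counts) in replicate 1, and the sources used here do not say which part of the gene is disrupted, so these counts do not check the label. TPM is a level per transcript length, relative to all transcripts of a library. All 8 erythroid progenitor markers examined, among them Kit, Gata2 and Myb, were detected, with a summed level of 355 TPM in replicate 2 and 583 TPM in replicate 1. All 6 lymphocyte markers were at 0 in both libraries, as were 4 of 6 fibroblast and endothelial markers, and none of 7 granulocyte and macrophage markers was detected. Markers of 2 related lineages were present. Of 5 megakaryocyte markers 3 were detected, with Pf4 at 9.78 TPM in replicate 2 and 12.8 TPM in replicate 1. Of 4 mast cell markers 2 were detected, with Cpa3 at 24.8 TPM in replicate 2 and 51.4 TPM in replicate 1, and their part in the levels below was not tested. The 8 erythroid maturation markers, among them the globin genes Hba-a1 and Hbb-bs, summed to 1501 TPM in replicate 2 and 151 TPM in replicate 1. In bulk RNA, fewer cells of a type and less RNA per cell cannot be told apart.

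Histone methylation is set by opposing enzymes. Most writers carry a catalytic SET domain and take the methyl group from S-adenosylmethionine, while DOT1L uses another fold. The erasers considered here are JmjC-domain oxygenases that need iron and 2-oxoglutarate. Methylation at H3K4 marks active promoters and enhancers, H3K36 and H3K79 methylation lie over transcribed genes, and H3K9, H3K27 and H4K20 methylation are linked to repressed or compacted chromatin. In red cell precursors these enzymes act while chromatin condenses, and Kmt5a is known to be needed for erythroid maturation in mice.

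Nearly the whole group was transcribed in G1E cells. A gene counted as detected where both libraries gave it a TPM of 1 or more, which 38 of the 41 enzymes reached (92.7%), against 8345 of 21461 nuclear protein-coding genes (38.9%). The detected enzymes had a median level of 16.3 TPM, against 7.72 TPM over all detected nuclear protein-coding genes, and 32 of the 41 lay above that second median. Together the enzymes took 82984 counts in replicate 2 (1.08% of nuclear protein-coding counts) and 94062 in replicate 1 (1.105%). The 3 genes that were not detected were Setd4, Kdm8 and Kdm4d, with at most 1.17 TPM in any library.

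The highest level was that of Kmt5a, which encodes the H4K20 monomethyltransferase, with 64.1 TPM in replicate 2 and 123 TPM in replicate 1 (93.7 ± 41.9 TPM, SD, n = 2). Only 2.88% of detected nuclear protein-coding genes had a higher mean level. Nsd3, a writer of H3K36 methylation, came next with 37.5 TPM in replicate 2 and 59.7 TPM in replicate 1, and then Setd5, a SET protein linked to H3K36, with 32.9 TPM in replicate 2 and 53.8 TPM in replicate 1. These genes held ranks 1, 2 and 3 in both libraries, although the mean levels of Nsd3 and Setd5 differed by less than their SDs of 15.7 and 14.8 TPM. Below them the order was Kmt2e, Kdm6b, Kdm5b, Setdb1, Kmt2c, Kmt2d and Kmt2b, whose means lay between 31.2 and 23.4 TPM and did not differ from their neighbours beyond their SDs. All these SDs hold the lower TPM in replicate 2 that 37 of the 41 genes shared. They therefore do not measure the error of a difference between genes within a library. Across the 41 genes the rank order of levels was alike in the libraries, with a Spearman rho of 0.971 as a description of genes that share each library. The same rho over the genes they were set against was also 0.971.

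**Figure D1:**
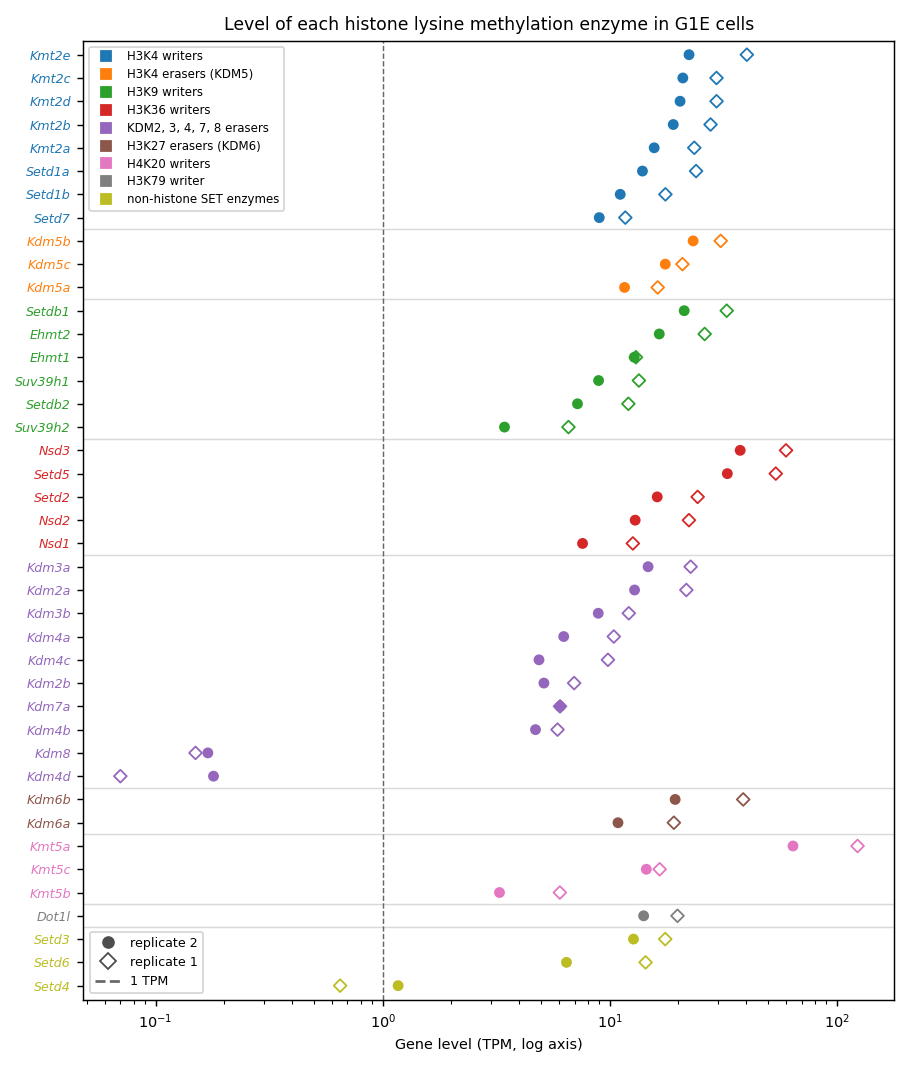
Level of each of the 41 enzymes in TPM on a log axis, with filled circles for replicate 2 and open diamonds for replicate 1, coloured and grouped by role. Kmt5a lies furthest right at 64.1 and 123 TPM, while Kdm8 and Kdm4d lie below the dashed line at 1 TPM in both libraries.

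The start regions of the genes with the highest and the lowest mean level are shown. Both hold fewer CpG dinucleotides than the median of 19.5 over the 30 genes of the group with such a region. Each is the stretch of 250 bases before the annotated start in RefSeq on GRCm38.p6, read 5′ to 3′ along the gene, with CpG in capitals. That of Kmt5a lies at chr5:124439680-124439929 on the plus strand and holds 16 CpG, and that of Kdm4d, an eraser of H3K9 methylation known mainly from testis, lies at chr9:14500483-14500732 on the minus strand and holds 14.
Kmt5a: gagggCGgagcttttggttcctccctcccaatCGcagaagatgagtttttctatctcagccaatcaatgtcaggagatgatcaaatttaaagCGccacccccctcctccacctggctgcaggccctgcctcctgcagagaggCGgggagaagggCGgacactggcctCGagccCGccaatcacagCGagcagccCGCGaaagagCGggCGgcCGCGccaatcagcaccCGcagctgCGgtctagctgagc
Kdm4d: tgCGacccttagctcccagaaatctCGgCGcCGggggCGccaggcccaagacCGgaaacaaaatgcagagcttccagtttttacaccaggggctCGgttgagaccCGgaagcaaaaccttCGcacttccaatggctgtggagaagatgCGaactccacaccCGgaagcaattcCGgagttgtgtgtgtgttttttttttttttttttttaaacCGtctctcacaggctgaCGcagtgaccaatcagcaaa

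A RefSeq start region was found for 30 of the 41 genes, and their median was 19.5 CpG in 250 bases, from 0 to 56. The median was 17 over 8538 start regions of detected nuclear protein-coding genes and 6 over all 32851. These comparison sets hold every entry of a gene, while each of the 30 is the entry nearest the leading coding transcript. The 30 also include Setd4, Kdm8 and Kdm4d, which were not detected. With every entry, the median was 22 CpG over 42 start regions of the enzymes and 24 over 39 of the detected ones. TATAAA, read on both strands, was in 0 of the 30, against 5.69% of start regions of detected genes and 12.4% of all. The GC-box letters GGGCGG, likewise on both strands, were in 20 of the 30 (66.7%), against 60.0% for detected genes and 32.7% of all. AGATAA, one form of the GATA factor motif, was in 3 of the 30 (10%), against 9.99% of all start regions, and in 7.41% of those of detected enzymes, against 5.79% for detected genes. TGATAA was in 0 of the 30, against 7.94% of all start regions and 3.56% for detected genes. A match describes letters and not a bound site, and no match speaks only of these windows.

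The genes also shared features of size that the naming rule did not use. Detected members spanned a median of 56248.5 bp on the genome, against 23537 bp over all detected nuclear protein-coding genes. Their median estimated transcript length was 4446 nucleotides, against 2352, and they had a median of 6 annotated transcripts, against 4. Kdm5c, Kdm6a and Suv39h1 lie on the X chromosome. Setdb1, Kdm2b, Setd1a and Setd3 had counts that were not whole in at least 1 library, so some of their reads were shared with other genes and their values are less certain.

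The writers of H3K4 methylation were all detected, with mean levels from 10.4 to 31.2 TPM. The 8 genes summed to 132 TPM in replicate 2 and 204 TPM in replicate 1. Kmt2e, which carries a SET domain but for which H3K4 activity is doubtful, was highest at 22.3 TPM in replicate 2 and 40.1 TPM in replicate 1. Kmt2c and Kmt2d, which act at enhancers, had 20.98 and 20.4 TPM in replicate 2, and both had 29.5 TPM in replicate 1. Kmt2b and Kmt2a, the paralogs that bind menin, had 19.0 and 15.7 TPM in replicate 2, against 27.8 and 23.6 TPM in replicate 1. Setd1a and Setd1b, which set bulk trimethylation of H3K4, had 13.9 and 11.1 TPM in replicate 2, against 24.0 and 17.6 TPM in replicate 1. Setd7, which monomethylates H3K4 and many other proteins, was lowest at 8.99 TPM in replicate 2 and 11.7 TPM in replicate 1. Within each of the 3 paralog pairs the means differed by less than the larger SD of the pair, which holds the shift between the libraries. Kmt2b and Setd1a lay above their paralogs in both libraries.

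All 3 KDM5 erasers of H3K4 were detected. Kdm5b had 23.3 TPM in replicate 2 and 30.8 TPM in replicate 1. Kdm5c had 17.6 TPM in replicate 2 and 20.9 TPM in replicate 1, and Kdm5a had 11.6 TPM in replicate 2 and 16.3 TPM in replicate 1. Their summed level was 52.5 TPM in replicate 2 and 68.0 TPM in replicate 1. Set against the 6 writers that work in COMPASS-type complexes (Kmt2a to Kmt2d, Setd1a and Setd1b), this sum was 0.519 of theirs in replicate 2 and 0.447 in replicate 1. An RNA ratio of this kind says nothing of enzyme amount or activity.

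The writers of H3K9 methylation were led by Setdb1, which silences retroelements together with Trim28, at 21.3 TPM in replicate 2 and 32.7 TPM in replicate 1. Ehmt2 and Ehmt1, which form the G9a-GLP pair that dimethylates H3K9, had 16.5 and 12.8 TPM in replicate 2, against 26.2 and 13.0 TPM in replicate 1. Of the trimethylating enzymes of pericentric heterochromatin, Suv39h1 had 8.93 TPM in replicate 2 and 13.4 TPM in replicate 1. Its paralog Suv39h2 had 3.44 TPM in replicate 2 and 6.58 TPM in replicate 1, so the ranges of the paralogs did not overlap. Setdb2 lay between them in both libraries, at 7.21 TPM in replicate 2 and 12.1 TPM in replicate 1.

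Erasers of H3K9 and H3K36 methylation, from the KDM2, KDM3, KDM4, KDM7 and KDM8 families, were lower, with a median of 6.70 TPM over 10 genes, against 15.1 TPM over all 41. Kdm3a and Kdm3b, which remove mono- and dimethylation of H3K9, had 14.8 and 8.90 TPM in replicate 2, against 22.7 and 12.1 TPM in replicate 1. Kdm2a, an eraser of H3K36 methylation with a CpG-binding zinc finger, had 12.9 TPM in replicate 2 and 21.7 TPM in replicate 1. Its paralog Kdm2b, also known as a partner of a variant Polycomb complex, had 5.13 TPM in replicate 2 and 6.97 TPM in replicate 1. The KDM4 family, which acts on trimethylated H3K9 and H3K36, split by level. Kdm4a, Kdm4c and Kdm4b had 6.27, 4.88 and 4.71 TPM in replicate 2, against 10.4, 9.82 and 5.89 TPM in replicate 1. Kdm4d had 0.180 TPM (12 counts) in replicate 2 and 0.0700 TPM (4 counts) in replicate 1. Kdm7a, which acts on H3K9 and H3K27, had 6.04 TPM in both libraries. Kdm8, a JmjC protein whose histone substrate is debated, had 0.170 TPM (11 counts) in replicate 2 and 0.150 TPM (7 counts) in replicate 1.

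Erasers of H3K27 methylation were both detected. Kdm6b, known as an inducible enzyme, had 19.4 TPM in replicate 2 and 38.7 TPM in replicate 1, rank 9 of the 41 genes in replicate 2 and rank 5 in replicate 1. Kdm6a, part of the KMT2C and KMT2D complexes, had 10.9 TPM in replicate 2 and 19.2 TPM in replicate 1. The writers of H3K27 methylation have other names and lie outside the rule.

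Among writers of H3K36 methylation besides Nsd3 and Setd5, Setd2, which makes trimethylated H3K36, had 16.2 TPM in replicate 2 and 24.4 TPM in replicate 1. The dimethylating enzymes Nsd2 and Nsd1 had 12.9 and 7.59 TPM in replicate 2, against 22.3 and 12.6 TPM in replicate 1. Dot1l, the H3K79 writer, had 14.1 TPM in replicate 2 and 19.9 TPM in replicate 1. After Kmt5a, the H4K20 writers Kmt5c and Kmt5b, which make di- and trimethylated H4K20, had 14.5 and 3.27 TPM in replicate 2, against 16.6 and 6.03 TPM in replicate 1. Of the SET enzymes with mainly non-histone substrates, Setd3, the actin histidine methyltransferase, had 12.7 TPM in replicate 2 and 17.6 TPM in replicate 1. Setd6, which methylates RelA, had 6.45 TPM in replicate 2 and 14.4 TPM in replicate 1. Setd4, whose substrates are less settled, had 1.17 TPM (45 counts) in replicate 2 and 0.650 TPM (20 counts) in replicate 1.

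Demethylases made up 25.6% of the summed TPM of the group in replicate 2 and 24.6% in replicate 1 (25.1% ± 0.697, SD, n = 2). Their summed level was 147 TPM in replicate 2 and 222 TPM in replicate 1, against 426 TPM in replicate 2 and 679 TPM in replicate 1 for methyltransferases. Per gene, the median was 10.5 TPM over the 15 demethylases and 17.3 TPM over the 26 methyltransferases. By role, H3K4 writers held 23.1% of the sum in replicate 2 and 22.6% in replicate 1. H3K36 writers held 18.7% in replicate 2 and 19.2% in replicate 1, and H4K20 writers held 14.3% in replicate 2 and 16.2% in replicate 1.

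**Figure D2:**
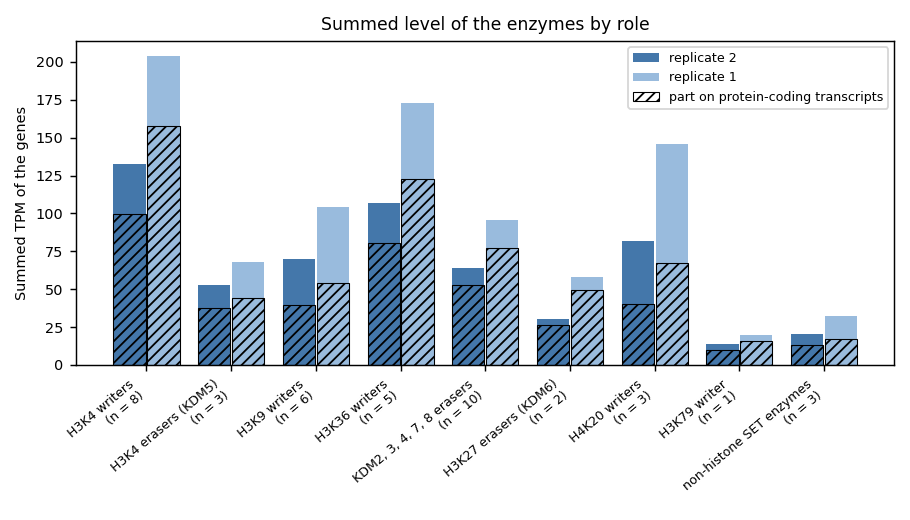
Summed TPM of the enzymes in each role, with dark bars for replicate 2 and light bars for replicate 1, and the hatched part on transcripts annotated as protein coding (the number of genes is under each role). Writers of H3K4, H3K36 and H4K20 methylation have the tallest bars, and about 40.1 of 81.9 TPM of the H4K20 writers lies on protein-coding transcripts in replicate 2.

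Part of the TPM of these genes was assigned to transcript models that are not annotated as protein coding. Transcripts annotated as protein coding held 69.8% of the summed TPM of the enzymes in replicate 2 and 67.3% in replicate 1, against 81.2% in replicate 2 and 80.9% in replicate 1 over all detected nuclear protein-coding genes. Retained-intron transcripts held 19.0% in replicate 2 and 19.7% in replicate 1, against 9.86% in replicate 2 and 9.63% in replicate 1 over those genes. Counted in reads, the gap was smaller. Protein-coding transcripts held 88.2% of the enzymes' counts in replicate 2 and 86.4% in replicate 1, against 89.4% in replicate 2 and 89.3% in replicate 1. The retained-intron models of these genes have a median length of 1043 nucleotides and the protein-coding ones 4150, so a read on a short model adds more TPM. Of the 138 non-coding models, 32 have fewer than 50 bases outside the exons of coding transcripts of the same gene, and these 32 held 26.02% of the non-coding TPM in replicate 2 and 24.3% in replicate 1.

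Among the 38 detected enzymes, 6 (15.8%) had over 50% of their TPM on non-coding transcripts in both libraries, against 10.2% of all detected nuclear protein-coding genes. Among genes with 2 or more transcripts these shares were 17.1% and 13.3%. The 6 were Ehmt2, Kmt2a, Kmt5c, Ehmt1, Setd6 and Kdm2b. Counted in reads, protein-coding transcripts held over 50% in both libraries for Kmt2a, Kmt5c and Kdm2b, and in replicate 2 alone for Ehmt2 and Setd6. For Ehmt1 they held 37.7% in replicate 2 and 34.2% in replicate 1. The non-coding models Ehmt2-208, Kdm2b-213 and Ehmt1-206 have 35, 33 and 0 bases outside coding exons, while Ehmt2-205 has 411 and Ehmt1-208 has 1294. For Kmt2a, Kmt2a-204, annotated as subject to nonsense-mediated decay and 2146 nucleotides long, held 57.2% of the gene's TPM in replicate 2 and 59.4% in replicate 1, though with 534 of 3761 counts in replicate 2 and 604 of 3914 in replicate 1. For Ehmt2, protein-coding transcripts held 4.97 of 16.5 TPM in replicate 2 and 6.43 of 26.2 TPM in replicate 1. For Kmt2b, the 651-nucleotide retained-intron model Kmt2b-208 held 54.1% of TPM in replicate 2 and 35.97% in replicate 1, and only 13 of its bases lie outside coding exons. Kdm6b stood near the other end, with 100% of its TPM on the coding Kdm6b-201 in replicate 2 and 95.2% in replicate 1. Kmt2d, Setd2, Kdm3a, Kdm3b and Nsd1 had 100% of their TPM on protein-coding transcripts in both libraries. The main Kdm5a transcript and 1 of Setd5 are not in the annotation used here, so their type is unknown, and they held 48.0% and 9.31% of their genes' TPM in replicate 2, against 66.7% and 22.1% in replicate 1.

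The lead of Kmt5a was smaller on coding transcripts. Kmt5a had 1.71 times the TPM of Nsd3 in replicate 2 and 2.07 times in replicate 1. On protein-coding transcripts alone it had 33.3 TPM in replicate 2 and 56.3 TPM in replicate 1, which was 1.09 times the Nsd3 level in replicate 2 and 1.15 times in replicate 1. The retained-intron transcript Kmt5a-203 held 20.4% of Kmt5a TPM in replicate 2 and 33.8% in replicate 1. It is 804 nucleotides long and held 261 of 3035 counts in replicate 2 and 610 of 3955 in replicate 1. Models of another non-coding type, processed transcript, held 27.7% of Kmt5a TPM in replicate 2 and 20.3% in replicate 1. Counted in reads, protein-coding transcripts held 78.6% of Kmt5a in replicate 2 and 74.3% in replicate 1. The sequences at splice sites that retained-intron transcripts read through are shown for 3 enzymes, 5′ to 3′ along the gene on GRCm38, with intron bases in capitals and exon bases in lower case. Kmt5a-203 runs through the 3′ splice site of the intron at chr5:124450881-124451285, keeping 115 of its 405 bases. Setdb1-205 runs through the 5′ splice site of the intron at chr3:95339033-95339906, keeping 762 of 874 bases, with 13.8% of Setdb1 TPM in replicate 2 and 24.6% in replicate 1. Ehmt2-205 keeps the whole intron at chr17:34911056-34911362, 307 bases, with 25.8% of Ehmt2 TPM in replicate 2 and 22.6% in replicate 1. Other retained-intron models with high TPM were examined and are not shown. Nsd3-205 kept 1261 of 2262 bases of an intron, and Kmt2b-208 kept only 27 of 567. Setd5-209, with 25.4% of Setd5 TPM in replicate 2 and 19.2% in replicate 1, read into 0 introns of the coding transcripts.
Kmt5a 3′ splice site: TCCCCTCTTAACCAGgtctcaagggaaaac
Setdb1 5′ splice site: aaaccagacatatcgGTAAGACAACCTCAG
Ehmt2 5′ splice site: tgctggtatgacaagGTACGTGACCCTCAC
Ehmt2 3′ splice site: CCCTCCGCACCCCAGgacgggcggctgctc

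At each site shown the intron begins with GT or ends with AG, the usual splice letters, and the transcript continues across them. Both ends of the intron were read for Ehmt2 alone, and for Kmt5a and Setdb1 only the printed end was. The tables do not separate nuclear RNA not yet spliced from stable intron-retaining RNA, and the share of each was not tested.

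**Figure D3:**
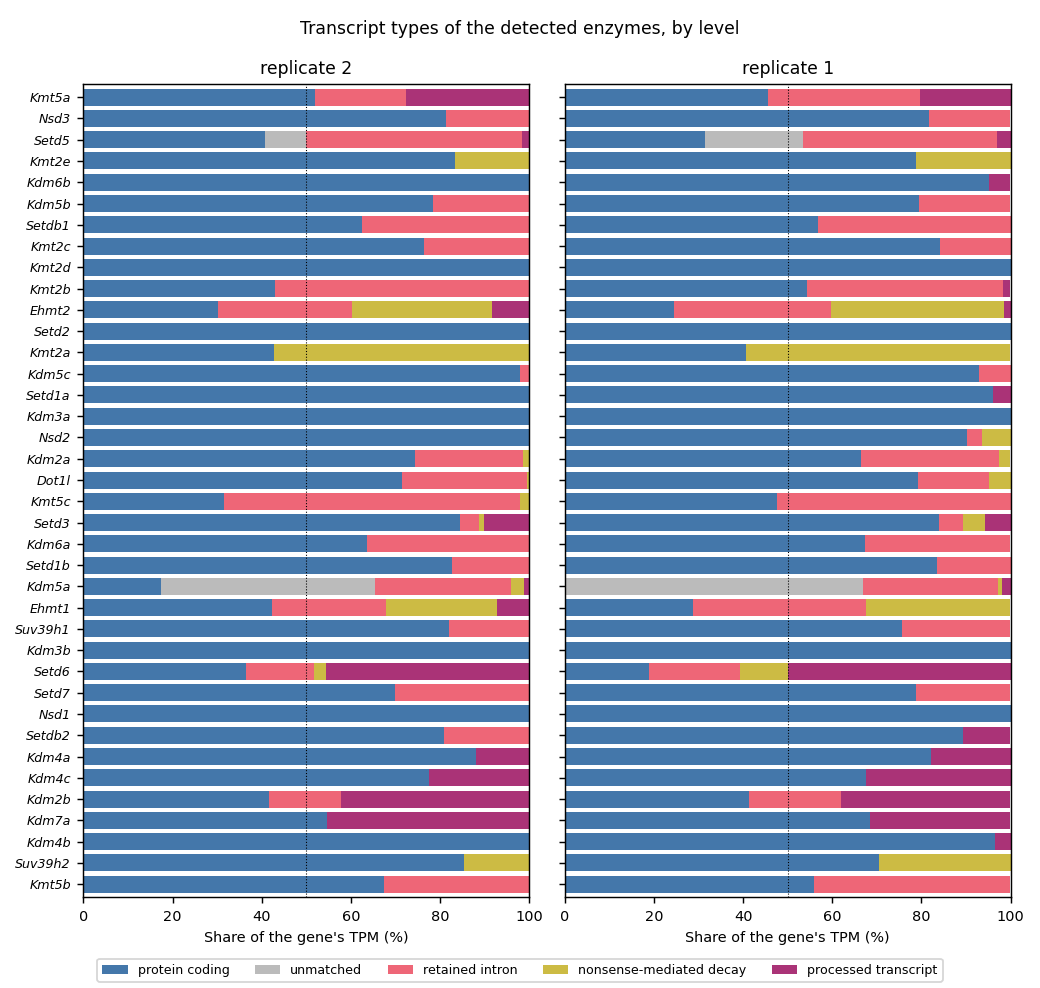
Share of each detected enzyme's TPM in percent by annotated transcript type, in replicate 2 (left) and replicate 1 (right), with genes ordered by mean level and a dotted line at 50%. Protein-coding transcripts (blue) fall short of the line in both libraries for 8 genes: Kmt2a, Ehmt2, Ehmt1, Kmt5c, Setd6, Kdm2b, Kdm5a and Setd5. Those of Kdm5a and Setd5 carry grey parts whose type is unknown.

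The leading transcript was the same in both libraries for 33 of the 38 detected enzymes, 3 of which have 1 transcript. It differed for Setd5, Nsd2, Kmt5c, Ehmt1 and Kmt5b. The total share of TPM that moved between the transcripts of a gene was taken as the absolute changes in share, summed and divided by 2. Its median was 13.3 percentage points over 35 enzymes with 2 or more transcripts, against 16.6 points over 6303 detected genes.

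Whether the libraries held the same levels of these enzymes was asked with a two-sided exact binomial test on estimated counts, scaled by TMM (trimmed mean of M-values) and adjusted by Benjamini-Hochberg over 11902 genes with at least 10 counts. With 1 library on each side, its p-values compare these libraries and cover counting error only. In TPM, 37 of the 41 genes were lower in replicate 2, with a median ratio of 0.650 over the detected ones, against 0.644 over all detected nuclear protein-coding genes. After TMM scaling of counts the median log2 ratio, replicate 2 over replicate 1, was 0.02 for the enzymes and 0.01 for all genes tested.

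With the adjusted p under 0.05 and a ratio of 2-fold or more, 1 of the 41 enzymes was higher in replicate 2, against 5.12% of all genes tested, and 0 were higher in replicate 1, against 2.2%. By an edgeR negative binomial exact test none passed, and none had an unadjusted p under 0.05, but its common dispersion was estimated from these same libraries, so their difference entered it as spread. The gene that passed was Setd4, with 45 counts in replicate 2 and 20 in replicate 1, a ratio of 2.53 (95% interval 1.46 to 4.52, exact binomial adjusted p = 0.0025). Its deposited credibility intervals overlapped, at 0.960 to 2.17 TPM in replicate 2 and 0.588 to 1.76 TPM in replicate 1. Its TPM on protein-coding transcripts was 0.230 in replicate 2 and 0 in replicate 1, and a later annotation places an antisense gene across 6360 bp of it. Kdm4d, with 12 counts in replicate 2 and 4 in replicate 1, had a ratio of 3.37 (1.02 to 14.3) and did not pass, and Kdm8, with 11 counts in replicate 2 and 7 in replicate 1, had a ratio of 1.76 (0.625 to 5.37) and did not pass either.

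By the adjusted p alone, 10 of the 41 enzymes were higher in replicate 2, against 17.5% of all genes tested, and 12 were higher in replicate 1, against 14.9%. Leaving aside Setd4, the ratios of these genes ran from 0.715 for Suv39h2 to 1.37 for Kdm7a. The enzymes had a median of 3774 counts over both libraries, against 475.5 for all genes tested, so smaller differences could pass. A ratio between 0.8 and 1.25 was found for 35 of the 41 (85.4%), against 63.9% of genes tested. Genes with fewer counts leave this window more often through counting error, and genes with like counts were not set beside the enzymes. The common coefficient of variation between the libraries was 26.3% over all genes tested.

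Within roles, all 3 KDM5 erasers passed by the adjusted p alone after TMM scaling, higher in replicate 2 as were 17.5% of all genes tested, and the ratio, replicate 2 over replicate 1, was 1.23 for Kdm5c, 1.12 for Kdm5b and 1.09 for Kdm5a. Scaled to total counts these ratios were 0.753 to 0.855, and that scaling put the median log2 ratio of all genes at -0.52. Both KDM6 erasers were lower in replicate 2, as were 14.9% of all genes tested, with a ratio of 0.815 for Kdm6b (3727 counts in replicate 2 and 5133 in replicate 1) and 0.908 for Kdm6a. Of the 8 H3K4 writers 5 were lower in replicate 2, against 14.9% of all genes tested (Kmt2b, Kmt2e, Setd1a, Setd1b and Kmt2d, ratios 0.895 to 0.966). Another 2 were higher, against 17.5% (Kmt2c at 1.06 and Kmt2a at 1.08). Scaled to total counts, the ratios of all 8 were 0.621 to 0.749. Kmt5a was lower, at 0.862. By the negative binomial test none of the enzymes named in this paragraph had an unadjusted p under 0.05. Suv39h2, which spans 19217 bp, shares 8316 bp with Dclre1c on the opposite strand. The file records list signal tracks by strand, but the sources do not say whether counting used strand. Counts of both genes were whole, at 308 for Suv39h2 and 462 for Dclre1c in replicate 2, and 484 and 485 in replicate 1. The counts thus show no reads split between them, and the part of the overlap in the Suv39h2 ratio was not tested. Of the genes that passed by the adjusted p with under 2-fold, Suv39h2, Kdm7a and Kdm4b (1.29) lay outside 0.8 to 1.25.

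**Figure D4:**
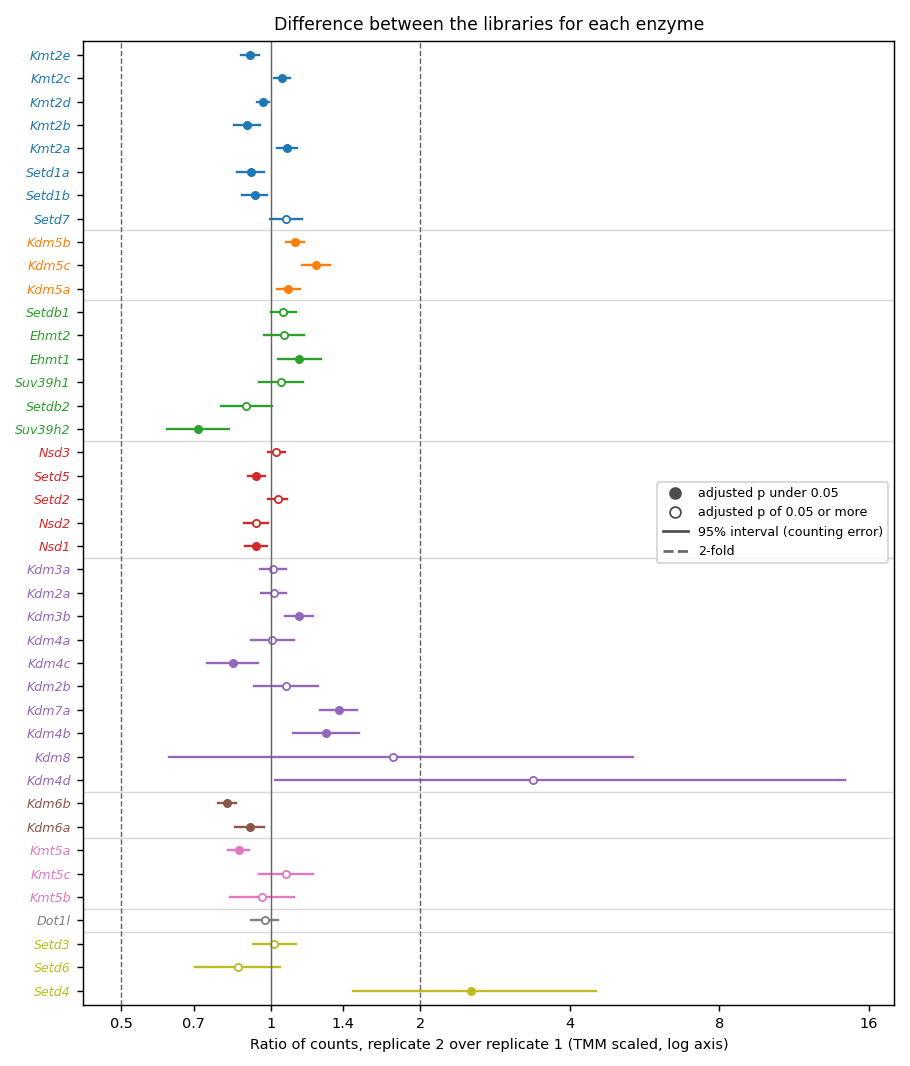
Ratio of TMM-scaled counts, replicate 2 over replicate 1, for each of the 41 enzymes on a log axis, with exact 95% intervals and filled points where the adjusted p was under 0.05. Setd4 alone passed the 2-fold line with an adjusted p under 0.05, and the wide bars of Kdm8 and Kdm4d rest on 18 and 16 counts.

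The erythroid maturation markers differed between the libraries far more than the enzymes did. All 8 were higher in replicate 2, by 8.30-fold for Alas2 to 557-fold for Aqp1 (496 counts in replicate 2 and 1 in replicate 1). Of the 8 progenitor markers 0 passed with 2-fold, with ratios of 0.867 to 1.13. The part of this difference in the smaller ratios of the enzymes was not tested. Over all genes tested 609 were higher in replicate 2 and 262 in replicate 1, so 69.9% of calls were higher in replicate 2. Scaled to total counts instead, 27.9% of the calls were.

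**Figure D5:**
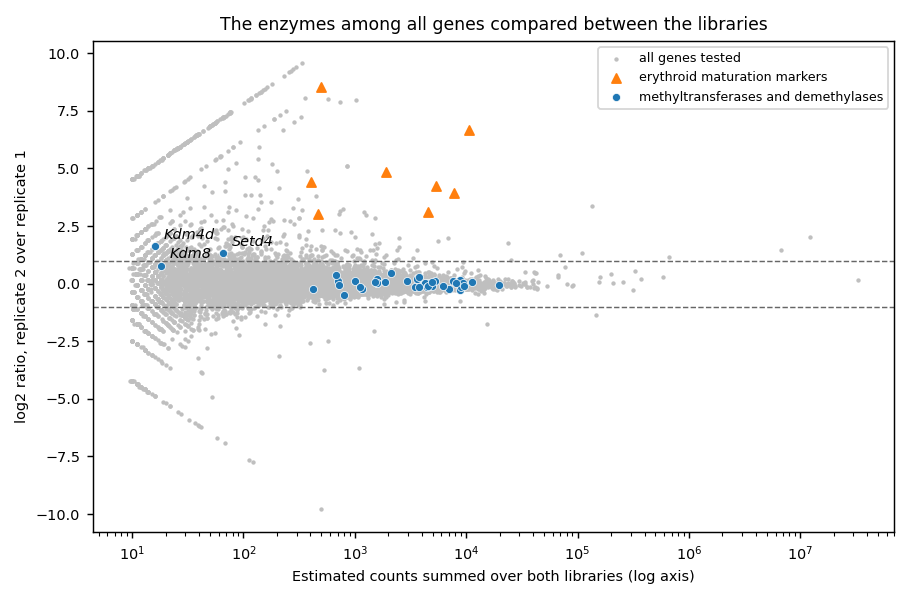
log2 ratio of counts, replicate 2 over replicate 1, against the estimated counts summed over both libraries (log axis), for all 11902 genes tested (grey), the 41 enzymes (blue) and the 8 erythroid maturation markers (orange), with dashed lines at 2-fold. The enzymes lie along the middle of the cloud save Setd4 and Kdm4d, while every maturation marker lies above the upper line.

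Genes that work with these enzymes were read the same way. All 12 subunits and partners examined of 1 or more COMPASS and MLL complexes were detected. They were led by Psip1, a menin partner, with 33.8 TPM in replicate 2 and 59.3 TPM in replicate 1. Hcfc1 followed with 29.8 TPM in replicate 2 and 48.0 TPM in replicate 1. The lowest was Pagr1a with 1.77 TPM in replicate 2 and 2.93 TPM in replicate 1. All 10 measured partners of H3K9 enzymes and HP1 proteins were detected, from Trim28 (41.7 TPM in replicate 2 and 79.9 TPM in replicate 1) and the HP1 gene Cbx5 (40.2 TPM in replicate 2 and 54.4 TPM in replicate 1) to Morc2a (2.32 TPM in replicate 2 and 6.17 TPM in replicate 1). All 6 partners of DOT1L were detected, with Aff4 at 33.0 TPM in replicate 2 and 51.8 TPM in replicate 1, Mllt10 at 18.9 TPM in replicate 2 and 33.4 TPM in replicate 1, and Mllt1, lowest by the mean, at 2.63 TPM in replicate 2 and 3.21 TPM in replicate 1. In each of these lists 0 genes passed the test between the libraries with 2-fold.

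Other lysine methyltransferases that the rule does not take in were sparser. Of 11, 7 were detected, with Ash1l, an H3K36 writer, at 8.23 TPM in replicate 2 and 12.7 TPM in replicate 1 and Prdm2 at 4.68 TPM in replicate 2 and 7.40 TPM in replicate 1. Mecom, Prdm16, Smyd1 and Smyd2 were listed at 0 in both libraries. Of 11 other measured demethylases and JmjC proteins 10 were detected, led by Jmjd1c with 24.4 TPM in replicate 2 and 41.9 TPM in replicate 1 and by Jarid2, a Polycomb partner, with 12.5 TPM in replicate 2 and 21.5 TPM in replicate 1. The lowest was Hr, the hairless gene, with 2 counts in replicate 2 and 0 in replicate 1. Of 13 enzymes that make or use S-adenosylmethionine and 2-oxoglutarate 12 were detected, led by the isocitrate dehydrogenase subunits Idh3b (51.1 TPM in replicate 2 and 93.8 TPM in replicate 1) and Idh3g (52.6 TPM in replicate 2 and 78.6 TPM in replicate 1). Mat1a, the liver form of methionine adenosyltransferase, was listed at 0 in both libraries. None of these 3 lists had a gene that passed the test between the libraries with 2-fold.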

How the data were processed

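The series holds 1 group, total RNA sequencing of 2 biological replicates of G1E, with a gene and a transcript table for each. The deposited columns are, per the file headers, expected counts (estimated counts without normalisation), TPM as maximum-likelihood and posterior mean estimates, FPKM, and the isoform share as a percent of the gene's TPM, with credibility bounds of TPM. The file records name mm10 and GENCODE M4. Which aligner and quantifier were run, and whether counting used strand, is not stated in the sources used here. Names, transcript types and positions were taken from the later GENCODE M21 (GRCm38), matched on identifiers without version (42462 of 43346 genes, and 287 of 290 transcripts of the enzymes). Start regions came from RefSeq on GRCm38.p6. Replicate 2 had a depth of 40597614 estimated counts and replicate 1 of 31649878. The 97 spike-in entries and 26248 entries named by a number were not tested, and those named by a number held 7 counts in replicate 2 and 3 in replicate 1.

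The libraries were compared gene by gene with an exact binomial test (two-sided) on rounded counts, with TMM library sizes from edgeR 4.0.16 (R 4.3.3), Benjamini-Hochberg adjustment over every gene whose counts in the libraries add up to 10 or more, and exact 95% Clopper-Pearson intervals, which cover counting error only. log2 ratios had 0.5 counts added. Alternatives were other scalings (DESeq2 1.42.0 size factors, total, nuclear protein-coding and spike-in counts), filters, an edgeR negative binomial exact test with 1 dispersion from both libraries, posterior mean TPM, FPKM, coding transcripts only and leaving out each library. SciPy 1.17.1, NumPy 2.4.6, pandas 2.3.3 and matplotlib 3.10.9 ran under Python 3.11.15. Any of the 41 enzymes could be named. Of each list of partner and related genes the 2 highest and the lowest by mean TPM and any that passed were named. Cell type markers served only to check the label, and examples of them were chosen after their values were seen. The enzymes, lists, tests and most alternatives were chosen with earlier results of these data known.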

Additional observations from a re-analysis of the deposited data

How the results depend on the processing

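The 38 detected enzymes became 34 to 40 under other thresholds and estimates (37 on coding transcripts alone), and 39 and 38 in replicate 2 and replicate 1 alone. The median level of 15.1 TPM moved to 10.1 TPM on coding transcripts, and was 12.8 to 17.6 TPM with a replicate left out. In FPKM, which is another unit, the median was 10.5. The demethylase share of 25.1% moved to 28.7% on coding transcripts, and was 24.6% to 25.6% with a replicate left out. The protein-coding share of 68.6% was 78.4% as a median per gene, 87.3% of counts, 70.6% with transcripts of unknown type taken as coding, and 67.3% to 69.8% with a replicate left out.

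The enzymes that passed between the libraries numbered 1, and 0 by the negative binomial test, 22 without the 2-fold limit and 41 with spike-in scaling. Under total counts the 1 that passed was Suv39h2 in place of Setd4 (ratio 1.75), and on coding transcripts it was Kdm5a. The main Kdm5a transcript in both libraries has no known type, with 1780 counts in replicate 2 and 2499 in replicate 1. Its coding transcript Kdm5a-201, of nearly the same length, had 639 counts in replicate 2 and 4.07 in replicate 1. The Setd4 ratio reversed to 0.112 with spike-in scaling, and its adjusted p by the negative binomial test was 0.92. All genes that passed numbered 871, and 1420 under total counts, 11644 under spike-in counts, 443 at 50 or more counts, 3848 without the limit and 296 by the negative binomial test. The median log2 ratio of the enzymes moved to -0.50 under total counts, -4.47 under spike-in counts and -0.56 as a TPM ratio, as the median of all genes moved to -0.52, -4.49 and -0.48. Spike-in entries held 10351 counts in replicate 2 and 514 in replicate 1. Other alternatives left these results within 1.5 times or within the spread between the libraries. With 2 libraries, a level or share from either library alone lies within the SD of the mean by construction, so those settings check nothing there. Each enzyme's level moved by less than its SD for 35 of 41 as posterior means, and by more for 6. On the FPKM scale these numbers were 20 and 21, but FPKM is another unit than the TPM of the SD. They therefore do not show how far a level depends on the processing.

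No paired analysis was possible because there is 1 group and 1 library on each side. With 2 libraries no spread between replicates enters the test, and at 18 and 16 counts in all the order of Kdm8 and Kdm4d was not resolved at this depth.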
